A study of Rattus norvegicus with 7 samples.

Results

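The lens is wrapped in a thick basement membrane, the lens capsule, which the lens epithelium and the young fibre cells keep laying down through life. Basement membranes are built from networks of type IV collagen and of laminin, a trimer of one alpha, one beta and one gamma chain. Nidogen and the heparan sulphate proteoglycan perlecan bind to both networks. Sparc is a collagen-binding secreted protein that is abundant in the lens and is needed for a normal capsule in mice, and fibronectin is a matrix protein that lens epithelial cells make more of when they turn into fibroblast-like cells.

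A set of 10 genes of the capsule and its matrix were followed across the arrays: Col4a1, Col4a2 and Col18a1 (collagen chains), Lama1, Lamb1 and Lamc1 (the chains of laminin-111), Nid1 (nidogen 1), Hspg2 (perlecan), Sparc, and Fn1 (fibronectin). They were chosen by name, and where a gene has several probes the one with the highest mean over the 7 arrays stands for it. Of these 10 genes, among 18166 named by a probe with 1 gene, 8 were on a probe, and Lamb1 and Hspg2 were not measured here. A signal above 5 on the log2 scale in at least 1 array, the cut described in the study's methods, was reached by 6 of the 8. Col18a1 and Fn1 stayed below it.

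Lenses came from 6-week-old male Sprague Dawley rats and were cultured whole. Control lenses were kept without galactose for 4 days (Control Day 4) or 6 days (Control Day 6), with sterile water in its place. Galactose lenses (3 arrays) spent 6 days in 30 mM galactose, which makes the outer lens turn opaque, and Glutamate lenses (2 arrays) spent 6 days in 30 mM galactose and received 20 mM glutamate for the last 3 of them. The lenses were ground for RNA, so fewer cells of a type and less RNA per cell cannot be told apart. The sources used here do not say whether the arrays of a group came from different animals. Each p therefore measures the spread between these samples, which may be technical. The 2 Control arrays also differ in culture day. Their part of that spread, and each Control SD, therefore includes any difference between the days. All 8 lens fibre markers with a probe and, in the Control and Glutamate arrays, all 9 lens epithelium markers were above 5. Markers of ciliary body and iris, vessels and blood, and retina were at or below 5 in every array, and of the fibroblast, muscle and leukocyte markers only Des (6.26 and 6.04 in Control, 3.92 to 4.24 in Galactose, 6.23 and 4.48 in Glutamate) and Cd68 (5.15 in Glutamate 2) passed it. Control Day 6 stood apart, with 3577 named probes above 5 against 3895 to 4404 in the other arrays.

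Col4a1 and Col4a2 encode the alpha1 and alpha2 chains that make up the most widespread type IV collagen. Their genes lie head to head, and their RefSeq start sites (build GRCr8) are 77 bases apart on chromosome 16. They also had the most alike profiles of any 2 tested members, with a root mean square difference of 0.26 on the log2 scale over the 7 arrays after each gene was centred on its mean. The promoter of Col4a1 is shown because it holds the start sites of both genes, that of Nid1 because this gene had the largest group differences, and that of Sparc as the tested member with the highest mean in Galactose relative to Control. Each runs from 250 bases before to 50 bases after the start site, 5′ to 3′ on the gene's strand, and capitals mark matches on either strand to the motifs searched: CCAAT, a site for the factor NF-Y; GGGCGG, the core of a site for Sp1; TATAAA, the TATA box; and TGACTCA, a site for AP-1. No matches of different motifs overlapped in the windows shown.
Col4a1 (chr16:84885347-84885646, plus strand): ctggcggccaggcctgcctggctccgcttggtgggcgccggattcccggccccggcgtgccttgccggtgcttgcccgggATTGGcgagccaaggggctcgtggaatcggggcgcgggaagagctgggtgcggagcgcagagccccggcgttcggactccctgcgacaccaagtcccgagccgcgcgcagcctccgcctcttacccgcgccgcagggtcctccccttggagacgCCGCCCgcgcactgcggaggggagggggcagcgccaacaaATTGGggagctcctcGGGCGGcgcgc
Nid1 (chr17:93069036-93069335, plus strand): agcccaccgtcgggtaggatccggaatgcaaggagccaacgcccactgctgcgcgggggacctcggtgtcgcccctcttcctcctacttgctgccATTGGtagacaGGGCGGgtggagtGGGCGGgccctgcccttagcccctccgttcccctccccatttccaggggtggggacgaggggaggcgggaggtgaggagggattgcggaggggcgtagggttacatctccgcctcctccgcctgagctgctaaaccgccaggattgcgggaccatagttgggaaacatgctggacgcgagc
Sparc (chr10:40038767-40039066, minus strand): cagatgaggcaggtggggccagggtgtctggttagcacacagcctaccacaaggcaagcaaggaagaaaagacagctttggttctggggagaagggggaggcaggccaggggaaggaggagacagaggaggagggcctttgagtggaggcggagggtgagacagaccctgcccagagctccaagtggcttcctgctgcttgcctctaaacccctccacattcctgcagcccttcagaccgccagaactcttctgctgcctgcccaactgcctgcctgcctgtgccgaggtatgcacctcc

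The windows of Col4a1 and Col4a2 share 176 bases, and one CCAAT match and both GGGCGG matches of Col4a1 lie in the shared stretch. Of the 9 members with a promoter in the RefSeq table, 4 hold CCAAT (Col4a1, Col4a2, Lama1 and Nid1), against 37.5% of 33469 promoters of this length. GGGCGG is in 7 of the 9 and in 33.1% of all promoters. The 7 have a G and C content of 62.7% to 75.0%, and the median of all promoters is 51.7%. The matches of Col4a2 all lie in the stretch shared with Col4a1, so the same bases are counted for both genes. The TATA box is in 0 of the 9 and in 14.2% of all promoters, and the AP-1 site is in 0 of the 9 and in 4.63% of all. The Sparc window holds none of these letters, and its content of G and C is 61.0% against 75.0% for Col4a1 and 66.3% for Nid1. These matches are descriptions of sequence and say nothing of binding.

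The first question was whether galactose culture altered the capsule genes. No tested member passed the threshold: 0 of 6 had an adjusted p under 0.05 in limma from Control to Galactose, where 0.0940% of the 5320 tested probes did, and 0 of 6 had an unadjusted p under 0.05, where 17.0% did. Of the 6, 4 had lower means in Galactose (38.0% of all tested probes did): Col4a1, Col4a2, Lama1 and Nid1, by 1.53-, 1.49-, 1.55- and 2.10-fold. Lama1 entered the test only through a Control array, so its place in this count and in the median of the 6 supports nothing. Sparc had a higher mean, by 1.40-fold. The interval of each of these differences included 0. The median log2 difference was -0.37 over the 8 measured members, -0.59 over the 6 tested ones and 0.17 over all tested probes. Over the 8 it was -0.20 without Galactose 1.

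Nid1, which links laminin to collagen IV, had the widest gap. Control Day 4 gave a log2 signal of 8.33 and Control Day 6 one of 8.23. In Galactose 1, 2 and 3 it was 5.97, 7.61 and 8.03, and in Glutamate 1 and 2 it was 8.73 and 7.98. Every Galactose array was below both Control arrays, Galactose 3 only just so, and Galactose 1 lay far under the rest. The mean was 8.28 ± 0.07 (SD, n = 2) in Control and 7.21 ± 1.09 (SD, n = 3) in Galactose, a log2 difference of -1.07 (95% interval -2.50 to 0.35, adjusted p = 0.364 from limma). Without Galactose 1 the difference was -0.45. Nid1 was the 1 tested member at least 2-fold lower in Galactose, where 1.84% of all tested probes were, and the 1 member whose Galactose arrays were all below the Control arrays, where 12.1% were.

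For Col4a1 the log2 signal was 7.32 on Day 4 and 6.14 on Day 6 of Control culture. The Galactose arrays were at 5.76, 6.02 and 6.58, and the Glutamate arrays at 6.58 and 6.36. Galactose 3 thus lay above Control Day 6, and the groups overlapped. The log2 difference from Control to Galactose was -0.61 (95% interval -1.57 to 0.35, adjusted p = 0.416 from limma), and it was -1.20 without Control Day 6 and -0.019 without Control Day 4, the day that was not shared with the treated lenses.

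For Col4a2 it was 6.06 on Day 4 and 5.46 on Day 6. The Galactose arrays were at 4.45, 5.41 and 5.69, and the Glutamate arrays at 5.41 and 5.56. As for Col4a1, Galactose 1 was the lowest of all arrays and Control Day 4 the highest. For Col4a2 the other 5 lay between 5.41 and 5.69, well above Galactose 1. The log2 difference from Control to Galactose was -0.58 (95% interval -1.52 to 0.37, adjusted p = 0.429 from limma), and -0.21 without Galactose 1.

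Lama1 encodes the alpha1 chain of laminin-111, and Lamc1 the gamma1 chain found in most laminins. Lama1 had a log2 signal of 4.64 and 5.10 in Control, 3.85, 4.22 and 4.64 in Galactose, and 4.86 and 4.64 in Glutamate. It entered the test only through Control Day 6, the 1 array above 5, so that its entry in the test rests on a Control array. Its lower mean in Galactose therefore supports nothing. The log2 difference from Control to Galactose was -0.63 (95% interval -1.32 to 0.05, adjusted p = 0.315 from limma). Lamc1 was at 5.13 and 5.85 in Control, at 5.42, 5.09 and 6.10 in Galactose, and at 5.28 and 5.42 in Glutamate. The groups overlapped throughout. Its difference was 0.05 (95% interval -0.81 to 0.90, adjusted p = 0.946 from limma), and its sign turned to -0.10 when arrays were centred on their medians.

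The Sparc signal was 10.32 on Day 4 and 9.11 on Day 6 of Control culture. In Galactose it was at 9.36, 10.54 and 10.70, and in Glutamate at 10.75 and 10.24. Control Day 6 and Galactose 1 were the low arrays, and the others lay within a narrow band. The log2 difference from Control to Galactose was 0.49 (95% interval -0.75 to 1.72, adjusted p = 0.607 from limma). After a second quantile normalization of the arrays it was -0.027.

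Fn1 was at 2.96 in Control Day 4 and at 3.07 in each of the other 6 arrays, near the median of all probes, which was 2.79 to 2.94. Col18a1, whose C-terminal fragment is endostatin, was between 2.59 and 3.28, with Control arrays at 3.07 and 3.16, Galactose arrays at 2.95, 3.28 and 2.60, and Glutamate arrays at 2.59 and 3.07. Both were too low for a difference to be read at this signal, in any group.

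**Figure D1:**
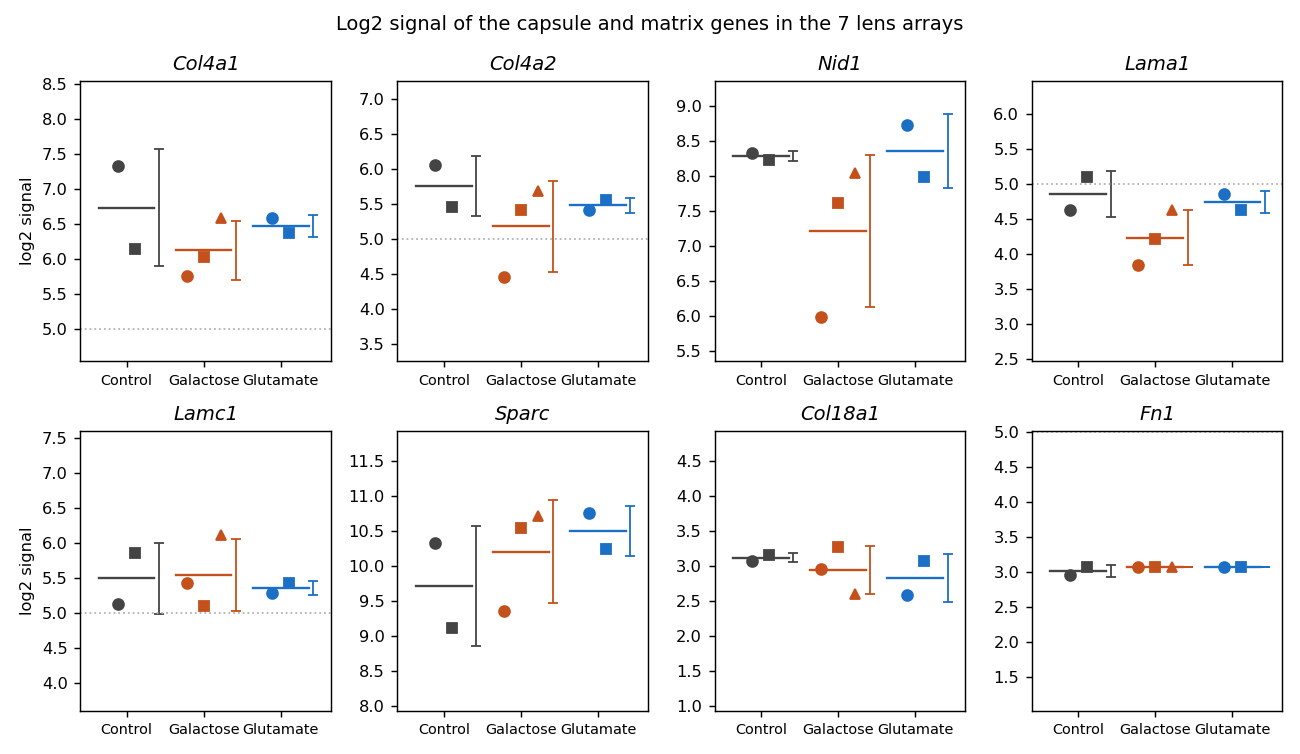
Log2 signal (vertical axes, each spanning 4 units) of the 8 measured capsule and matrix genes in Control, Galactose and Glutamate. Points are arrays (circle, square and triangle for Control Day 4 or replicate 1, Control Day 6 or replicate 2, and replicate 3), horizontal lines are group means, error bars are SD and the dotted line is a signal of 5. Nid1 in Galactose 1, at 5.97, lies far below the other arrays, and Fn1 is at 3.07 in 6 of 7.

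The next question was whether glutamate, added once the lenses had become opaque, moved the capsule genes. From Galactose to Glutamate 0 of 6 tested members passed the threshold in limma, as did 0% of all tested probes, and 0 of 6 had an unadjusted p under 0.05, where 5.53% did. Means were higher in Glutamate for 5 of the 6, where 35.4% of all tested probes were. The median log2 difference was 0.30 over the 8 measured members, 0.33 over the 6 tested ones and -0.11 over all tested probes. Over the 8 it was -0.032 without Galactose 1. This comparison and the first share the Galactose arrays, so that their values are not independent.

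Nid1 had a mean of 8.35 ± 0.53 (SD, n = 2) in Glutamate, 2.21-fold above Galactose, and Glutamate 2, at 7.98, lay just below Galactose 3, at 8.03. The log2 difference was 1.14 (95% interval -0.28 to 2.57, adjusted p = 0.908 from limma), and 0.53 without Galactose 1. It was the 1 tested member at least 2-fold higher in Glutamate, where 0.564% of all tested probes were. Lama1 had a difference of 0.51 (95% interval -0.17 to 1.20, adjusted p = 0.908). It was the 1 tested member whose Glutamate arrays were both above all Galactose arrays, where 7.76% of probes were, and the gap between 4.6399 and 4.6362 was far smaller than the spread of either group. For Col4a1 the difference was 0.35 (95% interval -0.61 to 1.31), for Col4a2 0.30 (-0.64 to 1.24), for Sparc 0.30 (-0.94 to 1.54) and for Lamc1 -0.19 (-1.04 to 0.66), with adjusted p between 0.955 and 0.975 from limma. Without Galactose 1 the differences of Col4a2 and Sparc turned to -0.064 and -0.12.

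Glutamate lenses were also set against Control lenses. Here again 0 of 6 tested members passed the threshold in limma, as did 0% of tested probes, and 0 of 6 had an unadjusted p under 0.05, where 6.62% did. None of the 6 was 2-fold apart, where 3.95% of probes were. Sparc had the widest gap, with a log2 difference of 0.78 (95% interval -0.57 to 2.14, adjusted p = 0.768), and Control Day 4, at 10.32, lay between both Glutamate arrays. The Sparc difference was 0.17 without Control Day 6 and 1.39, over 2-fold, without Control Day 4. The other 5 tested members had differences between -0.28 and 0.07, and for all 6 the arrays of both groups overlapped (13.3% of probes were higher and 15.0% lower without overlap). The intervals of all tested members but Lama1 (-0.87 to 0.63) include differences of over 2-fold, the widest being that of Nid1 (-1.49 to 1.64).

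**Figure D2:**
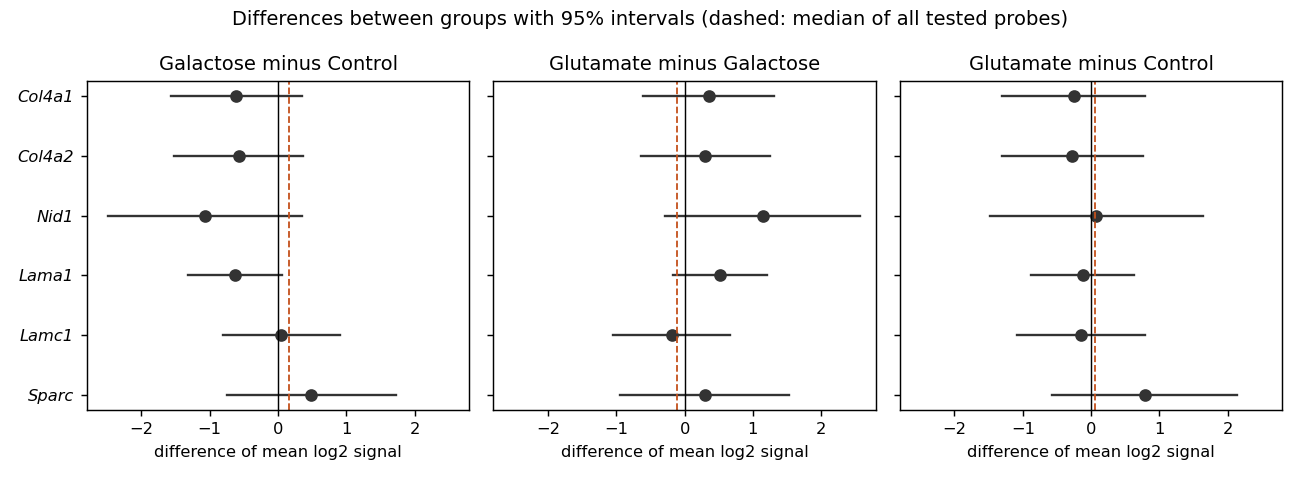
Differences of mean log2 signal (horizontal axes) for the 6 tested members in the 3 comparisons, with points for the estimate and lines for the 95% interval from limma. The interval of every member includes 0, and the dashed lines mark the medians of all tested probes, 0.17, -0.11 and 0.06.

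Single arrays stood out among the members. Galactose 1 was below every other array in 4 of the 6 tested members (Col4a1, Col4a2, Lama1 and Nid1), where 13.6% of all tested probes were. With Sparc, 5 of the 6 were lower there than in both other Galactose arrays, where 46.5% of probes were. Lama1 entered the test only through Control Day 6, so its place in these counts and in the means that follow supports nothing. The mean distance of the 6 members from their own means was -0.84 in Galactose 1, -0.16 and 0.32 in Galactose 2 and 3, 0.32 and 0.01 in Control Day 4 and Day 6, and 0.29 and 0.06 in Glutamate 1 and 2. The mean of the lens epithelium markers was also lowest in that array: the mean log2 signal of the 9 was 6.87 in Galactose 1, 7.56 in both other Galactose arrays, 7.78 and 7.45 in Control, and 7.48 and 7.37 in Glutamate. Single markers did not move as one.

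Foxe3, a transcription factor of the lens epithelium, was at 6.88 and 6.25 in Control, 4.06, 4.89 and 4.89 in Galactose, and 5.85 and 6.05 in Glutamate. Galactose minus Control gave a log2 difference of -1.95 (adjusted p = 0.0896 from limma), and Glutamate minus Galactose one of 1.34 (adjusted p = 0.606). Pdgfra, a growth factor receptor, was at 7.21 and 6.38 in Control, 4.68, 5.11 and 5.43 in Galactose, and 6.11 and 5.27 in Glutamate, with a difference of -1.72 in the first step (adjusted p = 0.133). Both were thus lower than Control in all 3 Galactose arrays, where 12.1% of all tested probes were, with Galactose 1 the lowest. Foxe3 entered the test only through Control and Glutamate arrays, so its place here and in the count below supports nothing. Pdpn, a surface glycoprotein and 1 of the genes the study picked from these arrays, lay the other way, at 7.34 and 8.57 in Control, 9.32, 9.54 and 9.79 in Galactose, and 7.36 and 9.09 in Glutamate (difference 1.60 in the first step, adjusted p = 0.248). Cryab, a small heat shock protein, was between 12.7 and 13.2 in all arrays, and Cdh1, E-cadherin, differed by 0.12. Against Control, 2 of the 9 were lower and 1 was higher in Galactose at an unadjusted p under 0.05. Over all tested probes, 17.0% had such a p in either direction. Of the 9 markers, 0 passed the threshold.

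The mean of the 8 fibre markers was between 10.7 in Galactose 1 and 11.1 in Control Day 4. Gja3, a connexin of fibre cells, was at 8.71 and 8.67 in Control, 7.40, 7.29 and 7.61 in Galactose, and 8.45 and 7.62 in Glutamate. Mip, an aquaporin of fibre cells, was at 11.29 and 11.88 in Control, 10.96, 10.81 and 10.89 in Galactose, and 11.36 and 11.46 in Glutamate. Both were lower in every Galactose array than in Control and in Glutamate, and Galactose 2 was the lowest array for both. Of all tested probes, 12.1% had every Galactose array below Control, and 7.76% had both Glutamate arrays above Galactose. Their differences from Control were -1.27 for Gja3 (adjusted p = 0.129 from limma) and -0.70 for Mip (adjusted p = 0.228). The crystallins Cryba1 and Crygs and the fibre protein Lgsn differed by -0.01, 0.15 and -0.08. The part of the epithelial and fibre markers in the capsule values was not tested.

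Between the Control arrays, Col4a1 was 2.27-fold and Sparc 2.32-fold lower in Day 6 than in Day 4. These 2 of the 6 members were at least 2-fold apart, where 28.6% of all tested probes were. After the second quantile normalization the log2 difference of Sparc between the days was -0.079 and that of Col4a1 -0.64. Lamc1 and Lama1 had higher signals in Day 6, by 0.72 and 0.47, and by 1.13 and 0.74 after that normalization. Nid1 differed by -0.10, which turned to 0.69. With 1 array for each day these differences have no replicate check.

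The tested probes most like the mean profile of the 6 members were looked for among 5123 others with 1 gene, by the root mean square difference of centred log2 signals over the 7 arrays. They were Ccng1 (0.13), Cttnbp2 (0.13), Plod1 (0.14), Whrn (0.14) and Hdac7 (0.14). Plod1, a lysyl hydroxylase that modifies collagen chains, had log2 signals of 5.86 and 5.65 in Control, 4.62, 5.66 and 5.69 in Galactose, and 5.79 and 5.69 in Glutamate. Its low array was Galactose 1, and the other 6 lay between 5.65 and 5.86.

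Other chains and partners of the capsule were read from lists chosen for their function. Of the other type IV collagen chains, Col4a6 was not measured here, and Col4a3, Col4a4 and Col4a5 were tested. From Control to Galactose 0 of the 3 passed the threshold in limma, and 1, Col4a4, was lower at an unadjusted p under 0.05, where 17.0% of all tested probes were lower or higher. Col4a4 was at 5.81 and 6.47 in Control, 5.12, 5.14 and 5.81 in Galactose, and 5.92 and 5.85 in Glutamate. Its log2 difference from Control to Galactose was -0.78 (standard error 0.31). Col4a3, its partner in the same trimer, was at 6.35 and 6.50 in Control, 5.02, 5.84 and 6.13 in Galactose, and 6.24 and 6.10 in Glutamate, with a difference of -0.76 (standard error 0.34). Col4a5 overlapped between all groups, with a difference of 0.07. Of 7 other laminin chains with a probe, Lama5, the alpha5 chain, was the 1 above 5 in any array, with a difference of 0.41. In limma 0 of these 4 genes passed the threshold in any comparison, and Col4a4 was the 1 with an unadjusted p under 0.05.

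Of 17 other basement membrane proteins with a probe, 3 were tested and 0 passed the threshold in limma in any comparison. Ntn4, a netrin that binds laminin, was lower in all Galactose arrays (4.26, 4.96 and 5.31) than in Control (5.78 and 5.47), where 12.1% of all tested probes were. In Glutamate it was at 5.71 and 5.31. Nid2, the second nidogen, had the opposite sign to Nid1. It was at 4.00 and 4.67 in Control, 5.76, 4.87 and 5.03 in Galactose, and 3.86 and 4.54 in Glutamate, a log2 difference of 0.89 in the first step (standard error 0.37, adjusted p = 0.294 from limma) and of -1.02 in the second (standard error 0.37, adjusted p = 0.853). Tinagl1, a secreted matrix protein, was at 4.92 and 4.41 in Control, 5.72, 4.86 and 5.21 in Galactose, and 4.11 and 4.19 in Glutamate. Tinagl1 and Nid2 were the 2 of this list lower in Glutamate than in Galactose at an unadjusted p under 0.05, where 5.53% of all tested probes had such a p in either direction, and the other comparisons had 0. Both genes entered the test only through Galactose 1 and 3, the group where they were high, so that these counts support nothing.

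**Figure D3:**
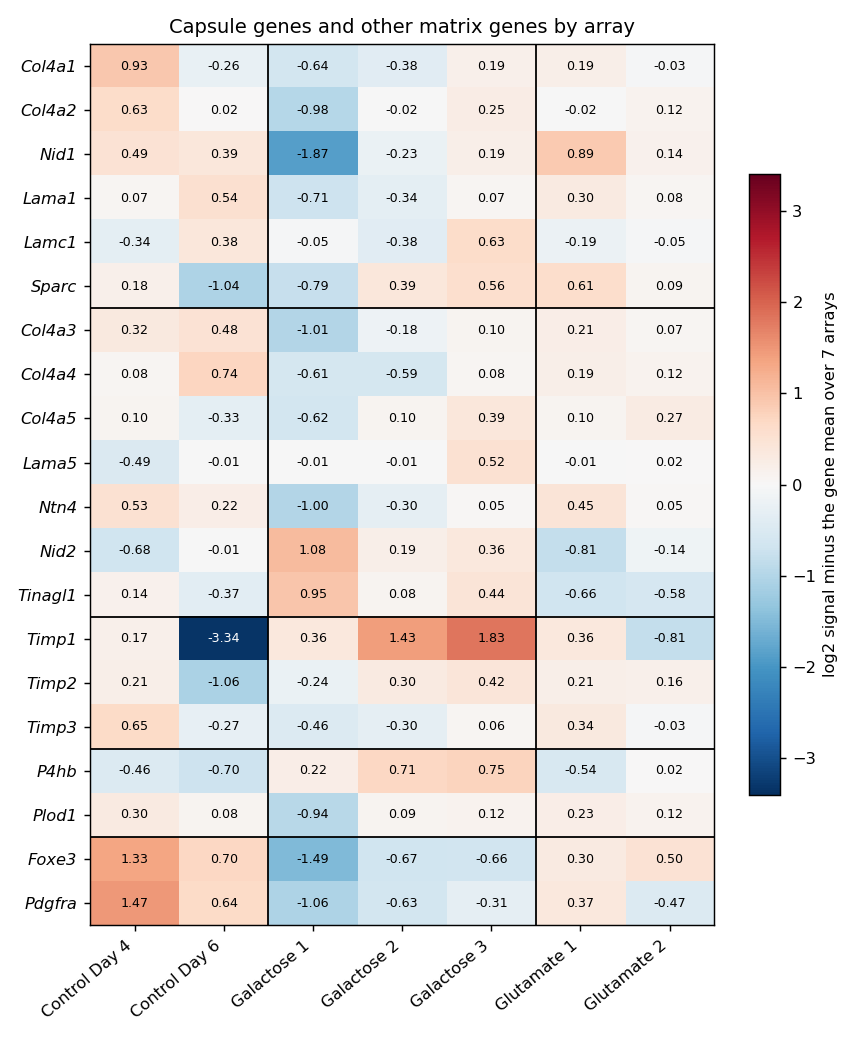
Log2 signal minus the gene's mean over the 7 arrays (colour and printed value), by array (columns) for the 6 tested members (top block), other basement membrane genes, Timp1 to Timp3, 2 collagen-processing enzymes and 2 lens epithelium markers (blocks below). Galactose 1 is low for most members (Nid1 -1.87, Col4a2 -0.98) and for Foxe3 (-1.49), and high for Nid2 (1.08). The 2 epithelium markers shown are those of the 9 with the largest differences from Control to Galactose. Of the 9, 5 had higher and 4 had lower means in Galactose than in Control.

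Among 21 matrix receptors with a probe, 10 were tested, and 0 passed the threshold in limma in any comparison. Itgb1, the beta1 integrin chain shared by most collagen and laminin receptors, had mean log2 signals of 7.02 in Control, 6.99 in Galactose and 6.50 in Glutamate. Sdc4 and Sdc2, heparan sulphate proteoglycans of the cell surface, had means of 7.45 and 7.72 in Control, 7.70 and 7.29 in Galactose, and 7.22 and 7.55 in Glutamate. Itga6, the alpha chain of a laminin receptor, was at 4.22 and 5.52 in Control, 4.21, 4.05 and 3.76 in Galactose, and 4.22 and 4.48 in Glutamate. Itga6 entered the test only through Control Day 6, so its lower values in Galactose support nothing. At an unadjusted p under 0.05, Sdc3, a syndecan, was lower in Galactose than in Control (log2 difference -0.69, standard error 0.24). At such a p Itga3, another laminin receptor chain, was lower in Glutamate than in Galactose (-0.61, standard error 0.22). Itga3 was also lower than in Control (-0.72, standard error 0.24). That is 1 of the 10 in each comparison. Over all tested probes the shares in either direction were 17.0%, 5.53% and, from Control to Glutamate, 6.62%. The median difference of the 10 tested receptors, Itga6 among them, was -0.25 from Control to Galactose, against 0.17 over all tested probes.

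Of 21 genes of collagen synthesis and folding with a probe, 14 were tested and 0 passed the threshold in limma in any comparison. P4hb, which is both a disulfide isomerase and the beta subunit of prolyl 4-hydroxylase, had mean log2 signals of 6.90 in Control, 8.04 in Galactose and 7.22 in Glutamate. In the first step it was the 1 of the 14 with an unadjusted p under 0.05, with a difference of 1.14 (standard error 0.27), and so it was in the second step, with -0.82 (standard error 0.27). Over all tested probes these shares were 17.0% and 5.53%. P4ha1, an alpha subunit of the same enzyme, differed by -0.14 (standard error 0.34). Its arrays were at 7.85 and 7.07 in Control and at 6.90, 7.27 and 7.77 in Galactose, and the groups overlapped. Ppib, a cyclophilin that helps collagen fold, was at 5.08 in Control Day 6 and between 6.96 and 8.35 in the other arrays.

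Few matrix proteases passed the filter: of 26 proteases and inhibitors with a probe, 5 were tested, and none of the 12 matrix metalloproteinases with a probe was above 5 in any array. From Control to Galactose 0 of the 5 passed the threshold in limma, and Timp1 and Bmp1 were higher at an unadjusted p under 0.05, where 17.0% of all tested probes were higher or lower. Bmp1 entered the test only through Galactose 2 and 3, so that its higher value there is no support for a change. Bmp1, the protease that trims procollagens, was at 3.69 and 3.36 in Control, 4.21, 5.14 and 5.19 in Galactose, and 4.48 in both Glutamate arrays. Its difference from Control to Galactose was 1.32 (standard error 0.33). Timp1, a secreted inhibitor of metalloproteinases, was at 8.84 on Day 4 but 5.33 on Day 6 of Control culture, at 9.03, 10.11 and 10.50 in Galactose, and at 9.04 and 7.87 in Glutamate. Day 4 lay just below the lowest Galactose array and Day 6 far below it. Timp1 is among the genes the study picked from these arrays for rising with galactose and falling with glutamate. Its p here therefore adds no support. The study also reports these directions for it by RT-qPCR. Plat, a plasminogen activator, was at 5.02 in both Control arrays, 4.63, 6.07 and 6.01 in Galactose, and 4.84 in both Glutamate arrays. Timp3, an inhibitor that binds to matrix, was at 8.46 and 7.53 in Control, 7.34, 7.50 and 7.86 in Galactose, and 8.14 and 7.77 in Glutamate, and Timp2 differed by 0.59 (standard error 0.40). Of 22 interstitial and fibrosis matrix genes with a probe, 20 were at or below 5 in every array, Col1a1 and Col3a1 among them. The 2 tested were Ccn2, a secreted factor of fibrosis, with means of 7.04, 6.61 and 5.62 in Control, Galactose and Glutamate, and Col5a1, with 4.50, 4.81 and 4.88. Neither passed the threshold in limma in any comparison. Ccn2 was lower in Glutamate than in Control at an unadjusted p under 0.05, where 6.62% of all tested probes were lower or higher.

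**Figure D4:**
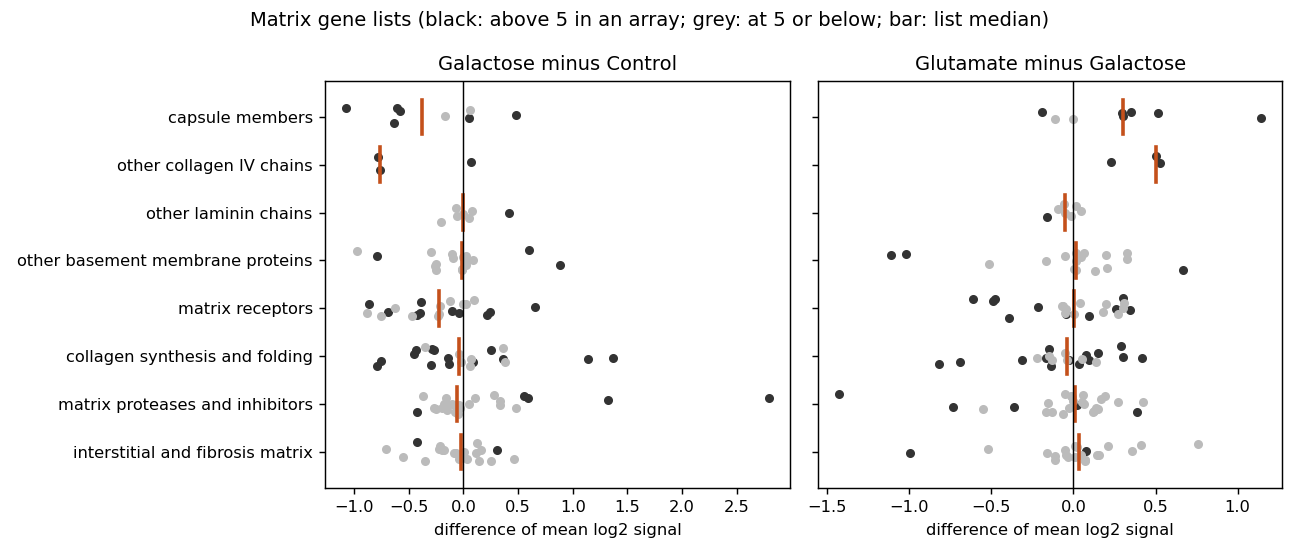
Differences of mean log2 signal (horizontal axes) for the genes of 8 matrix lists (rows) from Control to Galactose (left) and from Galactose to Glutamate (right). Points are genes, black where a signal was above 5 in an array and grey where none was, and bars are list medians, which for the capsule genes are -0.37 and 0.30. Both panels use the Galactose arrays, so that an array low in that group moves a gene left in one and right in the other.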

How the data were processed

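RNA of 7 lens cultures was hybridised by the authors to GeneChip Rat Gene 2.0 ST arrays, 1 array each, and the table they deposited gives a log2 signal for each probe, which the authors had normalized across all arrays by Robust Multi-array Average (RMA). The software is not given in the sources used here. Probes were named from the platform annotation (18511 with 1 gene, 575 with several, 17599 without), and no rat symbol changed through the current gene table. Probes with 1 or several genes and a signal above 5 in at least 1 array (5320) were fitted by limma (version 3.58.1, R 4.3.3), a mean for each group, 4 residual and 2.73 prior degrees of freedom. Benjamini-Hochberg adjustment ran over all 5320, and the threshold was 0.05. The fit was tested on simulated data. Standard errors and intervals come from it, and a list is described by counts and medians with no test. The members and lists were chosen with earlier results of these data known. Genes of other lists were named if past the threshold, if among the 3 with the highest mean, or if among the 2 with the largest difference in either step. Promoters are from RefSeq (build GRCr8) for 9 of the 10 members, matched by symbol. Python 3.11.15 was used for the rest. Alternatives were other filters, scalings, variance models and array weights, the compared groups alone, 1 probe per gene, the replicate number as a block, linear means and leaving out each array. The number of arrays limits the precision.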

Additional observations from a re-analysis of the deposited data

How the results depend on the processing

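In all 51 alternatives run over the 3 comparisons, 0 members passed the threshold in limma. Without Control Day 4 or Day 6 the Control group was 1 array, which adds nothing to the spread that p measures. The p values of these fits are therefore not given. Lama1 had a log2 difference of -0.87 from Control to Galactose without Control Day 4. At an unadjusted p under 0.05, Col4a1, Lama1 and Nid1 were lower in Galactose after the second quantile normalization (log2 differences -0.77, -0.75 and -1.40). At the same p and normalization, Nid1 was higher in Glutamate than in Galactose (1.35). Each other setting with at least 2 arrays in every group had at most 2 members with such a p. The share of all tested probes was 17.0% and 5.53% in the main result of these 2 comparisons. It is not given for the alternatives, so these counts are no result about the members. With means of linear signal 0 members were at least 2-fold apart in Galactose against Control and 0 in Glutamate against Galactose, in place of 1, since the log2 ratios of Nid1 were then -0.84 and 0.96. From Control to Galactose, Lamc1 turned to -0.14 after the quantile normalization, -0.10 with centred arrays, -0.0048 with array weights and -0.11 after the quantile normalization without Galactose 1, a setting chosen after seeing the data, and Sparc to -0.027 after the quantile normalization. Nid1 from Control to Glutamate turned to -0.047 after the quantile normalization, with or without Galactose 1. Leaving out 1 array at a time, the median of the members from Galactose to Glutamate was between -0.032 and 0.55. From Control to Galactose it was between -0.53 and -0.20, and from Control to Glutamate between -0.14 and 0.07. Among the tested members, the ranges that crossed 0 were -0.31 to 0.41 for Lamc1 and -0.12 to 1.09 for Sparc from Control to Galactose; -0.064 to 0.55 for Col4a2, -0.12 to 0.55 for Sparc and -0.41 to 0.092 for Lamc1 from Galactose to Glutamate; and -0.85 to 0.33 for Col4a1, -0.58 to 0.026 for Col4a2, -0.35 to 0.11 for Lama1, -0.50 to 0.22 for Lamc1 and -0.30 to 0.45 for Nid1 from Control to Glutamate. Sparc from Control to Glutamate ranged from 0.17 to 1.39. The cause of these turns was not tested.

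The sources used here do not say whether Galactose and Glutamate replicates with the same number were paired. Their deviations from the group means correlated at -0.033 (replicates 1) and 0.056 (replicates 2) over all tested probes. With 2 Glutamate arrays, the Glutamate deviations are equal with opposite signs, so these correlations cannot show whether the replicates were paired. With the replicate number as a block 0 members passed the threshold in any comparison, and 2 of all tested probes did from Control to Galactose, against 5. That count of 5 was 20 after the quantile normalization, 45 with centred arrays and 6 with 1 probe per gene. A variance model with an intensity trend and robust prior also gave 6. The count was 1 with a filter at 4, 1 with the compared groups alone, and 0 with array weights or when a Galactose array was left out. It was also 0 with no filter (over the 18511 probes with 1 gene, a set that also leaves out those with several). Leaving out a Glutamate array gave 1, the same fit for these 2 groups as the compared groups alone. Counts without a Control array are not given, since the Control group is then 1 array.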
